A study of Danio rerio with 6 samples.

Results

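Cell cycle and replication licensing genes were followed in cells sorted from *drl:EGFP* zebrafish embryos. The members were chosen by their symbol in the deposited annotation: those beginning with mcm, orc, cdc, plk, e2f, cdk or a cyclin letter and followed by a digit, together with the cdkn, aurk and bub genes and *gmnn*, and without *cdc42*. This gave 102 of 25965 genes with a symbol, measured by 149 of 75212 transcript clusters. A transcript cluster is the set of probes for a gene or part of one. For a gene with several clusters, the one with the strongest average signal across the 6 arrays was taken. Of the 102 members, 67 had 1 cluster and 35 had more.

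The EGFP-positive fraction held cells that expressed EGFP under the control of *draculin* (*drl*) regulatory sequence, active in the early lateral plate mesoderm, and the EGFP-negative fraction held the remaining cells. Both fractions came from homozygous *drl:EGFP* embryos of a single family at the 2 somite stage, without any treatment, and cells that took up propidium iodide, a stain for dead cells, were left out. Embryos were pooled from mass matings on 3 occasions, which gave 3 EGFP-positive and 3 EGFP-negative samples, each on its own Affymetrix ZebGene array. The EGFP-negative fraction is a mixture of all other tissues, so EGFP-positive cells are set against the rest of the embryo and not against a defined cell type.

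Dividing cells load the MCM helicase onto origins with the help of the origin recognition complex and Cdc6 in G1, and geminin then blocks a further round of loading until mitosis is over. D and E cyclins with their kinases release E2F factors and start S phase, A and B cyclins with Cdk1 bring about mitosis, and the Cip/Kip and Ink4 inhibitors hold the kinases back. In the zebrafish gastrula and early somite embryo most tissues are dividing, and the D cyclins and inhibitors are known to be deployed by tissue.

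The core of the cell cycle was measured at nearly the same level in both fractions, and a small number of regulators differed. By limma with a Benjamini-Hochberg adjusted p under 0.09 over all clusters, 4 of the 102 members were higher in EGFP-positive cells (*plk3*, *cdkn1ba*, *cdk5rap3* and *ccni2*) and 3 were lower (*ccnd2a*, *e2f5* and *cdkn1c*). Over all genes with a symbol, 4.12% were higher and 3.49% were lower, and among the 17553 genes whose mean lay above the median of clusters these shares were 5.90% and 4.80%. The members' shares of 3.92% and 2.94% were thus near or under the background, although 97 of the 102 members lay above that median. At an unadjusted p under 0.05, 13 members were higher and 7 lower, where 9.67% and 8.88% of all genes with a symbol passed, and 13.1% and 10.4% of those above the median of clusters. A SAM statistic estimates a false discovery rate from permuted labels. It called 3 members higher and 2 lower, and 2.05% and 1.69% of all genes with a symbol. Its permutations over 6 arrays include the true labelling and its mirror image, so its rate has a floor near the threshold. A lack of a SAM call, here or below, therefore adds little to the limma result. Ratios given here are differences of mean log2 signals turned back to a linear scale. In sorted bulk samples, fewer cells with a transcript and less of the transcript per cell cannot be told apart.

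A lack of a call was accompanied by a narrow interval for most members. The 95% interval of the difference lay wholly within a ratio of 1.5 in either direction for 88 of 102 members (86.3%), against 75.4% of the genes above the median of clusters. The median half-width of these intervals was 0.24 for the members and 0.26 for those genes on the log2 scale. Among the 55 genes assigned to G1, S or M phase, 49 had such an interval, and the exceptions were *ccnd2a*, *e2f5*, *ccnb3*, *cdc14b*, *cdc25* and *orc5*. Every EGFP-positive array lay above every EGFP-negative array for 23 of 102 members, beside 12.9% of all genes with a symbol. Every one lay below for 14 of 102, beside 12.6%. Among the 17553 genes above the median of clusters, 2961 were separated upward and 2363 downward.

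**Figure D1:**
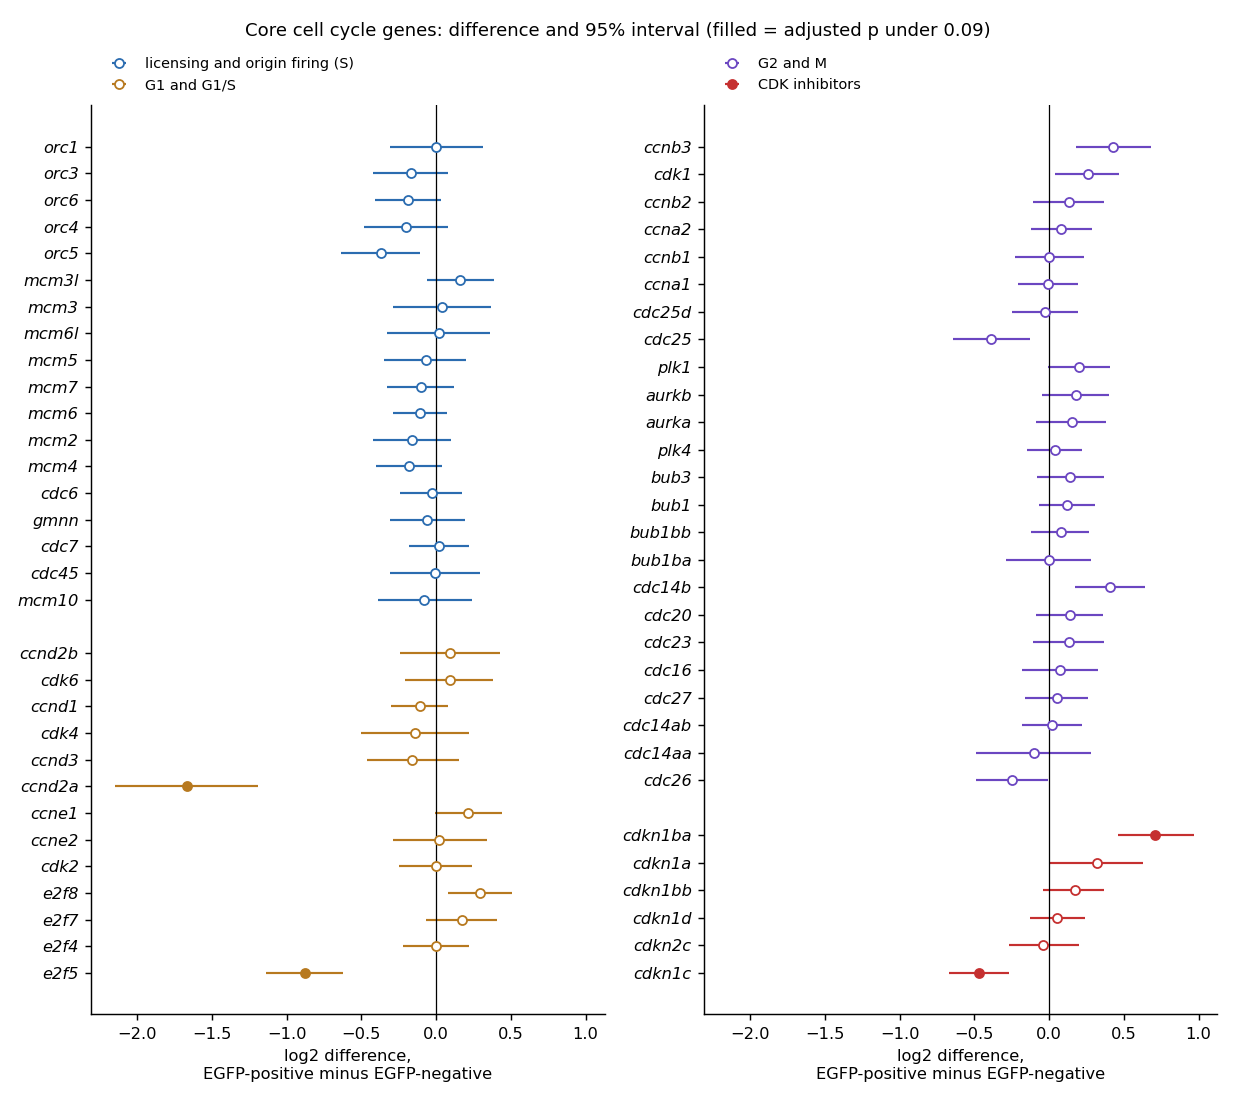
Log2 difference (EGFP-positive minus EGFP-negative, horizontal axis) of the 61 members assigned to a phase or to the inhibitors, 1 row a gene, with the 95% interval from limma. Filled points passed an adjusted p under 0.09, and the filled points are *ccnd2a* and *e2f5* in G1 and *cdkn1ba* and *cdkn1c* among the inhibitors.

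No licensing or origin firing gene passed the test. Of 18 such genes limma called 0 in either direction and the SAM statistic called 0. Among genes above the median of clusters limma called 5.90% higher and 4.80% lower. At an unadjusted p under 0.05 only *orc5* was lower, where 13.1% of those genes passed upward and 10.4% downward. Among the subunits of the MCM helicase, which unwinds DNA at the fork, *mcm4* had log2 signals of 10.09, 10.08 and 9.93 in EGFP-positive cells, against 10.31, 10.12 and 10.21 in EGFP-negative cells. The fractions of *mcm4* were separated by a narrow margin, with a difference of -0.18 (SE 0.09, adjusted p = 0.445 from limma). For *mcm2* the signals were 10.70, 10.81 and 10.70 in EGFP-positive cells, against 11.10, 10.79 and 10.81 in EGFP-negative cells. Only EGFP-negative replicate 1 of *mcm2* stood above the other arrays.

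The signals of *mcm6* were 10.59, 10.62 and 10.58 in EGFP-positive cells, against 10.73, 10.65 and 10.73 in EGFP-negative cells, again a narrow separation (difference -0.11, adjusted p = 0.596 from limma). Signals of *mcm3* were 9.73, 10.23 and 10.01 in EGFP-positive cells, against 9.91, 10.07 and 9.87 in EGFP-negative cells, and these overlap. In *mcm5*, EGFP-negative replicate 1 was again the highest array, with 9.76, 9.80 and 9.83 in EGFP-positive cells, against 10.10, 9.73 and 9.77 in EGFP-negative cells. The signals of *mcm7* overlapped as well, at 11.19, 11.37 and 11.16 in EGFP-positive cells, against 11.41, 11.37 and 11.26 in EGFP-negative cells. The related genes *mcm3l* and *mcm6l* gave lower readings, at 5.31, 5.39 and 5.31 in EGFP-positive cells, against 5.03, 5.27 and 5.22 in EGFP-negative cells for *mcm3l*. For *mcm6l* they were 5.98, 6.43 and 6.43 in EGFP-positive cells, against 6.40, 6.17 and 6.22 in EGFP-negative cells. The *mcm3l* readings lie near the array medians of 5.02 to 5.10, where a low transcript level and probe background look alike. A second cluster of *mcm5*, listed on the opposite strand, gave 0.33 without overlap (unadjusted p = 0.0279, adjusted p = 0.260 from limma). Its mean of 4.86 lies below the array medians. A second cluster of *mcm3* gave 0.19 with overlap, while the further clusters of *mcm6* and *mcm7* gave -0.20 to -0.02.

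The origin recognition complex marks the sites where the helicase is loaded. Its subunit *orc5* had the lowest difference of the licensing genes, with signals of 5.75, 5.89 and 5.73 in EGFP-positive cells, against 6.29, 5.97 and 6.25 in EGFP-negative cells. The fractions of *orc5* do not overlap, and its difference of -0.37 had an interval from -0.64 to -0.11 (adjusted p = 0.171 from limma). The largest subunit gene, *orc1*, had 8.83, 8.95 and 8.92 in EGFP-positive cells, against 9.17, 8.74 and 8.79 in EGFP-negative cells, with overlap. The other subunits measured, *orc3*, *orc4* and *orc6*, had differences of -0.17, -0.20 and -0.19 without a call, and only the fractions of *orc6* were separated.

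The loader *cdc6* had signals of 9.26, 9.37 and 9.31 in EGFP-positive cells, against 9.39, 9.25 and 9.41 in EGFP-negative cells. Geminin, encoded by *gmnn*, which sequesters the loading factor Cdt1, had 9.94, 10.26 and 10.13 in EGFP-positive cells, against 10.20, 10.11 and 10.21 in EGFP-negative cells. Both overlap, with intervals from -0.24 to 0.17 for *cdc6* and from -0.31 to 0.19 for *gmnn*. Of the genes that fire origins, the kinase gene *cdc7* and the helicase cofactor *cdc45* had differences of 0.02 and -0.01. The helicase-binding factor *mcm10* had 8.36, 8.64 and 8.61 in EGFP-positive cells, against 8.68, 8.39 and 8.77 in EGFP-negative cells.

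Among the 13 genes of G1 and the start of S phase, *ccnd2a* and *e2f5* were lower in EGFP-positive cells and the other 11 did not pass. Over genes above the median of clusters 4.80% were called lower. No G1 gene was called higher by limma or by the SAM statistic, where limma called 5.90% of genes above that median. At an unadjusted p under 0.05 from limma, 1 was higher and 2 were lower, where 13.1% and 10.4% of those genes passed. For the D cyclin *ccnd2a* (Zv9 chr25:17330935-17344076, reverse strand), signals were 5.55, 5.69 and 5.47 in EGFP-positive cells, against 7.70, 6.90 and 7.11 in EGFP-negative cells. Every EGFP-positive array was below every EGFP-negative array by more than a log2 unit, with EGFP-negative replicate 1 the highest. It was 3.18-fold lower, with a log2 difference of -1.67 (SE 0.20, interval -2.15 to -1.19, adjusted p = 0.00599 from limma). Its EGFP-positive signals are close to the array medians, so the ratio is approximate.

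The other D cyclins did not show this pattern. The signals of *ccnd1* were 11.49, 11.56 and 11.55 in EGFP-positive cells, against 11.71, 11.58 and 11.64 in EGFP-negative cells. Its fractions do not overlap, but the difference of -0.11 has an interval from -0.30 to 0.08 (adjusted p = 0.596 from limma). For *ccnd2b* they were 5.87, 5.78 and 5.86 in EGFP-positive cells, against 6.06, 5.59 and 5.59 in EGFP-negative cells, and for *ccnd3* 5.81, 6.25 and 5.93 in EGFP-positive cells, against 6.21, 6.20 and 6.05 in EGFP-negative cells. The D cyclin kinases *cdk4* and *cdk6* had differences of -0.14 and 0.09, with overlapping fractions.

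The E cyclins and their kinase, which carry cells into S phase, overlapped between the fractions. Signals of *ccne1* were 8.70, 8.91 and 8.85 in EGFP-positive cells, against 8.70, 8.56 and 8.56 in EGFP-negative cells. Those of *ccne2* were 9.98, 10.16 and 10.10 in EGFP-positive cells, against 10.31, 9.87 and 9.98 in EGFP-negative cells. For *cdk2* they were 10.07, 10.34 and 10.27 in EGFP-positive cells, against 10.34, 10.15 and 10.21 in EGFP-negative cells. The interval of the *cdk2* difference ran from -0.25 to 0.24.

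Of the 4 E2F factors among the members, *e2f5* was lower. No gene named *e2f1*, *e2f2* or *e2f3* was among the members, so the E2F family is covered only in part. In mammalian cells its product binds pocket proteins and represses E2F targets. Signals of *e2f5* (Zv9 chr2:31392512-31402125, reverse strand) were 4.89, 5.05 and 4.70 in EGFP-positive cells, against 5.72, 5.84 and 5.73 in EGFP-negative cells, without overlap. It was 1.84-fold lower (log2 difference -0.88, SE 0.11, adjusted p = 0.00693 from limma), and since the EGFP-positive mean of 4.88 lies below the array medians, its ratio depends on the background.

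The related pocket protein partner *e2f4* had 10.67, 10.82 and 10.61 in EGFP-positive cells, against 10.78, 10.63 and 10.69 in EGFP-negative cells, and the interval of its difference ran from -0.22 to 0.22. The atypical repressors *e2f7* and *e2f8* had differences of 0.17 and 0.29. For *e2f8*, signals of 10.57, 10.64 and 10.66 in EGFP-positive cells were all above those of 10.44, 10.21 and 10.35 in EGFP-negative cells (limma adjusted p = 0.191). A second cluster of *e2f8* gave 0.38 without overlap (adjusted p = 0.105 from limma), and a further cluster below the array medians gave 0.08.

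**Figure D2:**
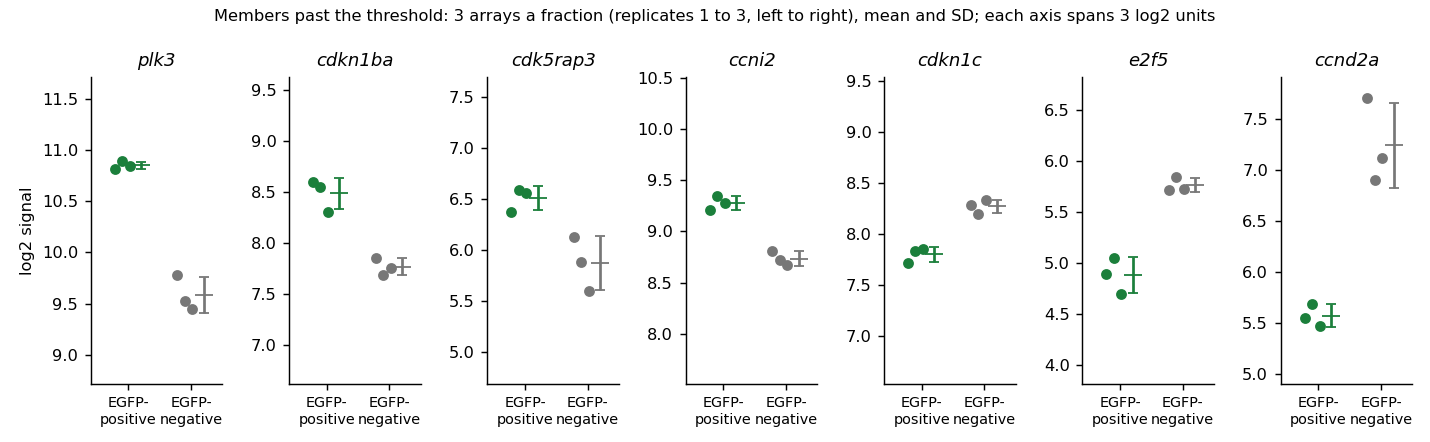
Log2 signal (vertical axis, each spanning 3 log2 units) of the 7 members past the threshold in the 3 EGFP-positive and 3 EGFP-negative arrays, with the mean and SD of each fraction. The fractions do not overlap in any of the 7, and the gap is widest for *ccnd2a* and *plk3*.

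None of the 24 genes of G2 and M phase passed the test in limma or by the SAM statistic, while at an unadjusted p under 0.05 limma gave 3 higher and 2 lower of 24, where 13.1% and 10.4% of genes above the median of clusters passed. The B-type cyclin *ccnb3* had signals of 7.72, 8.06 and 7.87 in EGFP-positive cells, against 7.50, 7.41 and 7.45 in EGFP-negative cells. Its fractions do not overlap, and its difference of 0.43 missed the threshold narrowly (interval 0.18 to 0.68, adjusted p = 0.0998 from limma). A second cluster of *ccnb3* on unplaced sequence gave the same difference of 0.43 (adjusted p = 0.0991 from limma) and a further cluster gave 0.27.

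The mitotic kinase gene *cdk1* had 10.08, 10.27 and 10.20 in EGFP-positive cells, against 9.96, 9.86 and 9.98 in EGFP-negative cells, a separation of small size (difference 0.26, adjusted p = 0.245 from limma). Its main partners overlapped. Signals of *ccnb1* were 9.26, 9.41 and 9.39 in EGFP-positive cells, against 9.30, 9.26 and 9.48 in EGFP-negative cells, and those of *ccnb2* were 8.68, 8.89 and 8.89 in EGFP-positive cells, against 8.60, 8.68 and 8.81 in EGFP-negative cells. For *ccna2*, the A cyclin of dividing somatic cells, they were 10.31, 10.50 and 10.44 in EGFP-positive cells, against 10.38, 10.32 and 10.30 in EGFP-negative cells. The A cyclin *ccna1*, known from the germ line in mammals, was below the array medians throughout, at 4.75, 4.76 and 4.75 in EGFP-positive cells, against 4.69, 4.73 and 4.87 in EGFP-negative cells.

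The Cdc25 phosphatase removes the inhibitory phosphate from Cdk1 and in the Drosophila embryo times entry into mitosis. Unlike *cdk1*, the signals of *cdc25* were lower on all EGFP-positive arrays, at 10.15, 10.29 and 10.23 in EGFP-positive cells, against 10.77, 10.62 and 10.44 in EGFP-negative cells. The difference of -0.39 did not pass (interval -0.64 to -0.13, adjusted p = 0.144 from limma). The other phosphatase gene, *cdc25d*, read below the array medians in both fractions.

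Differences of the aurora and polo kinases that build the spindle were all above 0 and none passed in limma or by the SAM statistic, nor at an unadjusted p under 0.05. Signals of *plk1* were 10.62, 10.78 and 10.67 in EGFP-positive cells, against 10.52, 10.53 and 10.41 in EGFP-negative cells, without overlap (difference 0.20, adjusted p = 0.357 from limma). The values were 0.18 for *aurkb*, 0.15 for *aurka* and 0.04 for *plk4*, the kinase of centriole duplication. A second cluster of *aurka*, listed on the opposite strand, gave 0.34 without overlap (unadjusted p = 0.028, adjusted p = 0.260 from limma). Of the spindle checkpoint genes, *bub3* had 10.50, 10.75 and 10.65 in EGFP-positive cells, against 10.45, 10.55 and 10.48 in EGFP-negative cells, and the others lay within 0.12 of 0.

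The last group of M phase was the anaphase promoting complex and mitotic exit, where the *cdc14* genes were placed by their symbol and not by a measured role. The phosphatase gene *cdc14b* had signals of 10.66, 10.87 and 10.69 in EGFP-positive cells, against 10.29, 10.46 and 10.26 in EGFP-negative cells. These do not overlap, and the difference of 0.41 missed the threshold (interval 0.17 to 0.64, adjusted p = 0.0964 from limma). The complex subunit gene *cdc26* ran the other way without overlap (difference -0.25, adjusted p = 0.310 from limma). For the activator *cdc20* and the subunits *cdc16*, *cdc23* and *cdc27*, differences ran between 0.05 and 0.14 with overlapping fractions. A second cluster of *cdc23* on unplaced sequence gave 0.32 without overlap (unadjusted p = 0.0338, adjusted p = 0.286 from limma).

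Inhibitors of cyclin-dependent kinases had 1 call in each direction. Of 6 measured, *cdkn1ba* was higher, *cdkn1c* was lower and 4 did not pass. Over all genes with a symbol 4.12% were higher and 3.49% were lower. The call of *cdkn1c* was kept under 10 of 15 alternatives. The gene *cdkn1ba* encodes a zebrafish form of p27 (Zv9 chr4:17660927-17663735, reverse strand), which binds cyclin E and cyclin A kinases. Its signals were 8.60, 8.55 and 8.31 in EGFP-positive cells, against 7.86, 7.69 and 7.76 in EGFP-negative cells. All EGFP-positive arrays were above all EGFP-negative arrays, a 1.64-fold ratio (log2 difference 0.71, SE 0.11, interval 0.46 to 0.97, adjusted p = 0.0156 from limma).

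The p57 gene *cdkn1c* (Zv9 chr7:50120652-50124046, reverse strand) accompanies, in other vertebrates, the exit of muscle and neural precursors from the cycle. Its signals were 7.72, 7.83 and 7.85 in EGFP-positive cells, against 8.28, 8.20 and 8.33 in EGFP-negative cells. The fractions do not overlap, and it was 1.38-fold lower (log2 difference -0.47, SE 0.08, adjusted p = 0.0316 from limma). This call was lost with the replicate number as a block (adjusted p = 0.098), by the SAM statistic (estimated false discovery rate 0.0905) and without EGFP-positive replicate 1, EGFP-positive replicate 2 or EGFP-negative replicate 3 (adjusted p = 0.117, 0.104 and 0.12 from limma).

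The p21 gene *cdkn1a*, a target of p53, had 6.23, 6.53 and 6.03 in EGFP-positive cells, against 5.92, 5.99 and 5.94 in EGFP-negative cells. Its fractions are separated but the EGFP-positive arrays are spread, and the difference of 0.32 did not pass (adjusted p = 0.338 from limma). The second p27 gene, *cdkn1bb*, had 9.05, 9.13 and 8.97 in EGFP-positive cells, against 8.95, 8.83 and 8.87 in EGFP-negative cells. For *cdkn1d*, a further gene of the Cip/Kip family, they were 6.45, 6.46 and 6.48 in EGFP-positive cells, against 6.42, 6.44 and 6.37 in EGFP-negative cells. The only Ink4 gene measured, *cdkn2c*, read near the array medians, at 5.03, 5.23 and 5.17 in EGFP-positive cells, against 5.05, 5.24 and 5.24 in EGFP-negative cells.

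The remaining 41 members share the naming of the family but were not assigned to G1, S or M phase or to the inhibitors. The member furthest above 0 was *plk3*, a polo-like kinase gene that in mammalian cells responds to stress and DNA damage. Its signals (Zv9 chr2:35324470-35332623, forward strand) were 10.82, 10.89 and 10.85 in EGFP-positive cells, against 9.78, 9.52 and 9.45 in EGFP-negative cells. The EGFP-positive arrays lie close together and are all more than a log2 unit above the EGFP-negative arrays. The ratio was 2.41 (log2 difference 1.27, SE 0.11, interval 1.02 to 1.52, adjusted p = 0.00133 from limma), and no other member was called higher at a ratio of 2 or more (1.59% of all genes with a symbol), while *ccnd2a* alone was called lower by that much (1.27%). The related polo-like genes *plk2a* and *plk2b* had differences of -0.25 and 0.22 and did not pass.

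A gene of the cyclin I family, *ccni2*, was also higher (Zv9 chr21:41785656-41803900, reverse strand). It had signals of 9.21, 9.35 and 9.28 in EGFP-positive cells, against 8.81, 8.72 and 8.67 in EGFP-negative cells. These are separate groups with a ratio of 1.46 (log2 difference 0.55, SE 0.09, adjusted p = 0.0179 from limma). A second cluster of *ccni2*, listed on the opposite strand, was also called higher, at a difference of 0.39 (adjusted p = 0.0742 from limma), the only call among the 47 further clusters of members.

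The gene *cdk5rap3* encodes a binding partner of the Cdk5 activator that in human cells belongs to the machinery for attaching the ubiquitin-like protein UFM1. Its signals (Zv9 chr12:30373955-30383307, forward strand) were 6.37, 6.59 and 6.56 in EGFP-positive cells, against 6.13, 5.88 and 5.60 in EGFP-negative cells. The fractions do not overlap, and of the called members only *ccnd2a* had a larger standard error (difference 0.64, SE 0.15, adjusted p = 0.0771 from limma). Its call was kept under only 5 of 15 alternatives, and among the fits without 1 array it held only without EGFP-negative replicate 1. In the others the adjusted p was 0.132 to 0.233.

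Among these unassigned members that did not pass, *ccng2*, an atypical cyclin that in mammals is linked to cycle arrest, had the largest difference above 0. Its signals were 8.46, 8.80 and 8.66 in EGFP-positive cells, against 8.29, 7.99 and 8.26 in EGFP-negative cells. The fractions do not overlap (difference 0.46, interval 0.15 to 0.77, adjusted p = 0.143 from limma), but the mean of its clusters gave a difference of 0.11.

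Of 12 cyclins and kinases of the transcription machinery limma and the SAM statistic called 0. Among genes above the median of clusters limma called 5.90% higher and 4.80% lower. At an unadjusted p under 0.05, which 13.1% of those genes passed upward, 1 was higher, namely *ccnt1*. This P-TEFb cyclin had 9.61, 9.68 and 9.47 in EGFP-positive cells, against 9.42, 9.39 and 9.27 in EGFP-negative cells (limma adjusted p = 0.333). The related *ccnt2b* overlapped, at 11.05, 11.14 and 11.04 in EGFP-positive cells, against 11.01, 11.02 and 11.16 in EGFP-negative cells. The signals of *cdk2ap2*, a binding partner of Cdk2, overlapped as well, at 12.18, 12.27 and 12.25 in EGFP-positive cells, against 12.20, 12.10 and 12.18 in EGFP-negative cells. Activators of Cdk5, a kinase of neurons, read near the array medians for *cdk5r1a*, *cdk5r1b*, *cdk5r2a* and *cdk5r2b*, with differences from -0.19 to 0.04.

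Duplicated members were set side by side as a description. In 12 pairs, 10 of them named a and b and the others *mcm3* with *mcm3l* and *mcm6* with *mcm6l*, the difference between fractions was set against that of the other gene of the pair. An exact two-sided permutation test over the 6 arrays cannot give a p below 0.1 with 3 arrays against 3, so no pair could be shown to differ. In 4 pairs the gap did not overlap between the fractions (exact p = 0.1, adjusted p = 0.3 over the 12 pairs), and the others had p = 0.3 to 0.8. In the pair of p27 genes, *cdkn1ba* and *cdkn1bb* differed by 0.71 and 0.17 between the fractions, with a gap of 0.55 on the log2 scale. The D cyclins *ccnd2a* and *ccnd2b* differed by -1.67 and 0.09, with a gap of -1.76. The genes *cdc34a* and *cdc34b* encode ubiquitin-conjugating enzymes of the complex that degrades p27. Signals of *cdc34a* were 5.94, 5.85 and 6.06 in EGFP-positive cells, against 6.43, 6.28 and 6.70 in EGFP-negative cells, and those of *cdc34b* were 10.76, 10.75 and 10.70 in EGFP-positive cells, against 10.50, 10.42 and 10.40 in EGFP-negative cells. Both are separated but in opposite directions, with differences of -0.52 and 0.29 and a gap of -0.81, and neither passed on its own (adjusted p = 0.0976 and 0.121 from limma). A second cluster of *cdc34b*, listed on the opposite strand and near the array medians, gave -0.12 with overlap. Over the alternatives the lowest difference of *cdc34b* was 0.09. The fourth pair was *plk2a* and *plk2b*, with a gap of -0.46, where *plk2a* read below the array medians and its level was not told apart from background.

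**Figure D3:**
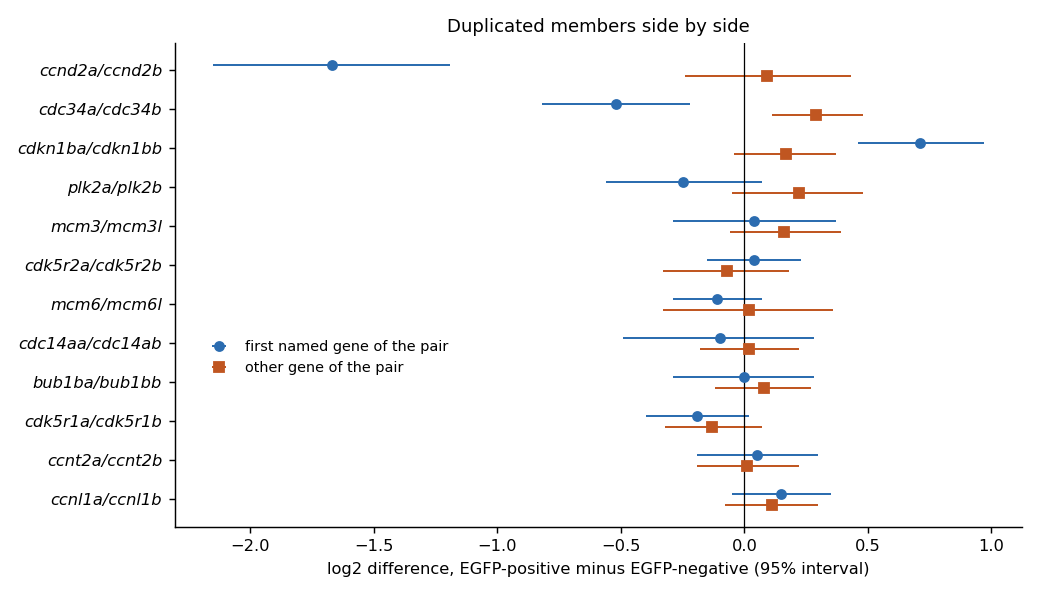
Log2 difference between EGFP-positive and EGFP-negative cells (horizontal axis, 95% interval from limma) for the 2 genes of each of 12 pairs, sorted by the gap between them. The *ccnd2a*/*ccnd2b* pair has the widest gap at -1.76, and 8 of the 12 pairs lie close together.

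Set side by side, the mitotic members lay slightly above and the licensing and firing members slightly below 0. The median log2 difference was 0.08 over the 24 genes of G2 and M, 0.00 over the 13 of G1, -0.07 over the 18 of licensing and firing and 0.11 over the 6 inhibitors, beside 0.02 over genes above the median of clusters. Differences were above 0 for 18 of 24 mitotic and 5 of 18 licensing and firing genes, beside 54.1% of genes above the median of clusters. After quantile normalization again the median of those background genes was -0.04 and the mitotic median was 0.02 with 13 of 24 above 0, while the licensing and firing median was -0.13 with 1 of 18 above 0. The gap between the mitotic and the licensing median was 0.15, and it was 0.14 to 0.20 under all alternatives and without any single array. Alternatives that change only the test, such as the replicate block, the intensity trend and the SAM statistic, could not move this gap. These are descriptions of small shifts, and no test was made of them.

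In the medians of the licensing and mitotic groups, the arrays of a fraction differed by about as much as the fractions did. Over all members, arrays correlated at 0.995 to 0.998 within a fraction and at 0.985 to 0.989 between fractions. Of 18 licensing and firing genes, 11 had their highest signal on EGFP-negative replicate 1, and of 24 mitotic genes 14 had theirs on EGFP-positive replicate 2. Median deviations of the licensing and firing genes from the mean of 6 arrays were -0.10, 0.05 and -0.02 in EGFP-positive cells, against 0.12, -0.03 and 0.01 in EGFP-negative cells. The fractions therefore overlap. Those of the mitotic genes were -0.05, 0.13 and 0.05 in EGFP-positive cells, against 0.01, -0.05 and -0.08 in EGFP-negative cells, again with overlap. The licensing and firing median, -0.07 over all arrays, was -0.03 with 8 of 18 above 0 without EGFP-positive replicate 1, and -0.05 with 7 of 18 without EGFP-negative replicate 1. It was -0.12 without EGFP-positive replicate 2 and without EGFP-negative replicate 2, with 1 and 2 of 18 above 0. The mitotic median, 0.08 over all arrays, was 0.04 with 16 of 24 above 0 without EGFP-positive replicate 2 and 0.12 with 18 of 24 without EGFP-positive replicate 1.

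**Figure D4:**
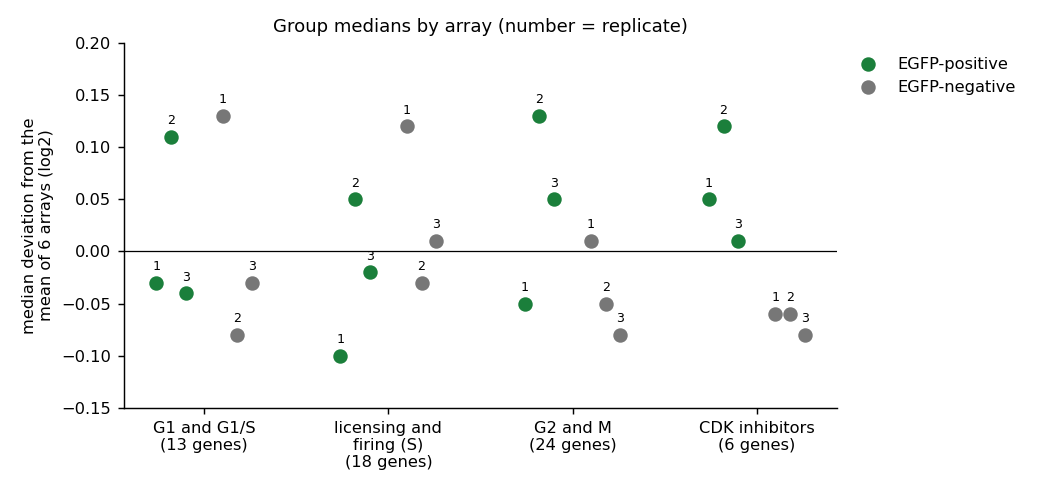
Median deviation of each group of members from the mean of 6 arrays (vertical axis, log2) on each array, with the replicate number beside the point and EGFP-positive left of EGFP-negative. Among the licensing and firing genes EGFP-negative replicate 1 is highest at 0.12, and among the mitotic genes EGFP-positive replicate 2 is highest at 0.13.

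Partners of these genes that the symbol rule does not take in were listed by role. Of 91 such genes limma called 0 higher and 2 lower, both in the G1 list. Among genes above the median of clusters it called 5.90% higher and 4.80% lower. The SAM statistic gave 0 higher and 1 lower. An unadjusted p under 0.05 from limma gave 12 higher and 2 lower, where 13.1% and 10.4% of genes above the median of clusters passed. The gene *tfdp2* encodes a dimerization partner that E2F factors need to bind DNA. Its signals were 8.26, 8.38 and 8.34 in EGFP-positive cells, against 9.84, 9.56 and 9.47 in EGFP-negative cells, more than a log2 unit apart. It was 2.46-fold lower (log2 difference -1.30, SE 0.11, adjusted p = 0.00164 from limma), and -0.97 by the mean of its clusters. The related partners *tfdp1a* and *tfdp1b* had differences of 0.10 and -0.05.

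The Myc family gene *mycn*, a driver of growth and G1 progression, had signals of 9.71, 9.84 and 9.83 in EGFP-positive cells, against 10.12, 10.18 and 10.29 in EGFP-negative cells. It was 1.32-fold lower without overlap (adjusted p = 0.0648 from limma). Leaving out any of the 6 arrays ended this call (limma adjusted p from 0.0975 to 0.203). The pocket protein genes *rb1*, *rbl1* and *rbl2* had differences of 0.06, 0.13 and 0.03.

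Of 34 genes of the replication fork and nucleotide supply limma and the SAM statistic called 0, and at an unadjusted p under 0.05 1 was higher. That gene was *ticrr*, at 0.32 without overlap (unadjusted p = 0.00953, adjusted p = 0.146 from limma). The fractions of *dbf4*, at 0.26, were also separated upward. The loading factor gene *cdt1* had a difference of 0.07 with overlap. The sliding clamp *pcna* and the ribonucleotide reductase gene *rrm1* both had a difference of -0.18 and were separated downward. Of the 34 differences 13 were above 0 and 21 below, and the median of the list was -0.06. That median was 0.00 by the mean of a gene's clusters, 0.01 without EGFP-positive replicate 1 and 0.00 without EGFP-negative replicate 1, so that its direction was not stable. Of 32 mitosis genes limma and the SAM statistic called 0 and 8 were higher at an unadjusted p under 0.05, a cut that 13.1% of genes above the median of clusters passed upward. Every EGFP-positive array lay above every EGFP-negative array for 15 of these 32 genes, and every one lay below for 0. Of 17553 genes above the median of clusters, 2961 and 2363 were separated in these directions. In the mitosis list 30 differences were above 0 with a median of 0.15, and 26 were above 0 with a median of 0.08 after quantile normalization again. Among them were *wee1*, whose kinase opposes Cdc25, at 0.46 (adjusted p = 0.160 from limma), and the kinetochore genes *spc24* and *spc25* at 0.38 and 0.35. The proliferation marker *mki67* averaged 11.62 in EGFP-positive cells, against 11.54 in EGFP-negative cells. Of 10 checkpoint genes limma and the SAM statistic called 0, and 2 were higher at an unadjusted p under 0.05 from limma. That cut passed 9.67% of all genes with a symbol upward and 13.1% of those above the median of clusters. The 2 were the clamp loader gene *rad17* at 0.31 and the stress gene *gadd45ga* at 0.52. The fractions of *gadd45ga* overlapped. The checkpoint list had a median of 0.13 with 6 of 10 above 0. That median was 0.08 with 4 of 7 above 0 after the filter on low values. By the mean of a gene's clusters it was 0.04 with 5 of 10 above 0. Means of *rad9a*, *gadd45aa* and *gadd45ab* over the 6 arrays were 4.41, 3.98 and 4.49, below the array medians. The kinase genes *atm*, *atr*, *chek1* and *chek2* stood at -0.05, -0.19, 0.08 and -0.30.

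**Figure D5:**
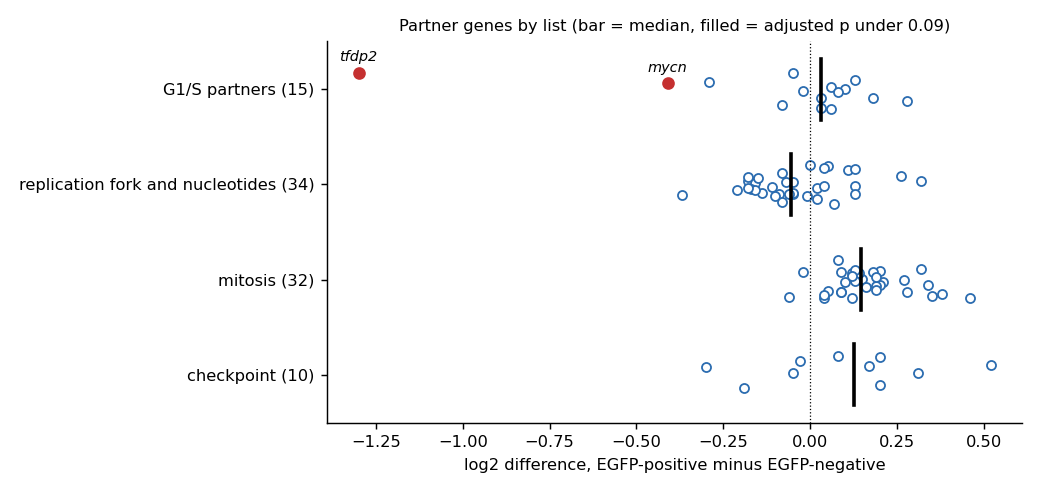
Log2 difference (EGFP-positive minus EGFP-negative, horizontal axis) of partner genes in 4 lists, 1 point a gene, with the median as a bar and the number of genes in brackets. Only *tfdp2* at -1.30 and *mycn* at -0.41 passed the threshold, and the mitosis list has its median at 0.15.

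The sorted fractions carried the markers of their labels, and other tissues moved with them. All 9 lateral plate markers, *drl*, *hand2* and *tal1* among them, were higher in EGFP-positive cells, with a summed linear signal of 8530 to 12000 in EGFP-positive arrays, against 637 to 981 in EGFP-negative arrays. The 4 endoderm markers and 4 of 5 hatching gland markers were higher too. The endoderm sums were 4000 to 4930 in EGFP-positive arrays, against 476 to 746 in EGFP-negative arrays, and the hatching gland sums were 8600 to 9580 in EGFP-positive arrays, against 3020 to 3600 in EGFP-negative arrays. Of 12 neural plate markers 10 were lower, with sums of 2700 to 3790 in EGFP-positive arrays, against 10500 to 12200 in EGFP-negative arrays, and of 9 epidermis markers 7 were lower, with sums of 4070 to 5020 in EGFP-positive arrays, against 12600 to 14300 in EGFP-negative arrays. Of 8 paraxial mesoderm markers 2 were higher and 1 was lower, with sums of 9250 to 9960 in EGFP-positive arrays, against 8400 to 10200 in EGFP-negative arrays. Of 5 notochord markers 3 were lower, and their sums were 1920 to 2300 in EGFP-positive arrays, against 4040 to 4330 in EGFP-negative arrays. Of 6 germ cell markers limma and the SAM statistic called 0 and 0 passed an unadjusted p under 0.05, with sums of 543 to 725 in EGFP-positive arrays, against 492 to 706 in EGFP-negative arrays. Of 7 enveloping layer and yolk markers 1 was higher and 1 lower, with sums of 2130 to 2510 in EGFP-positive arrays, against 1550 to 2750 in EGFP-negative arrays. A linear sum is weighted toward the brightest gene of its list. In the hatching gland list this was *ctslb*, at a mean log2 signal of 12.70 in EGFP-positive cells, against 10.99 in EGFP-negative cells. In the enveloping layer and yolk list it was *krt18a.1*, at 10.90 against 10.38. Of these lists 2 of 5 and 3 of 7 markers lay below the median of clusters. The hatching enzyme genes *he1.1* and *he1.2* averaged 5.26 and 5.14 in EGFP-positive cells, against 2.79 and 3.24 in EGFP-negative cells. The part of these tissues in the levels of *ccnd2a*, *e2f5*, *tfdp2*, *cdkn1c*, *cdkn1ba* and *plk3* was not tested.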

How the data were processed

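The deposited log2 values of 6 ZebGene arrays were made by the authors with MAS background correction and RMA to the gene level in ExpressionConsole, on Zv9 annotation, with versions not given in the sources used here. Annotation came from a table that also holds the authors' comparison (log2 difference, statistics, p-values), which was not used. Array medians were 5.02 to 5.10. The number of arrays limits the precision, and no depth exists.

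The fractions were compared by limma 3.58.1 in R 4.3.3 (lmFit, eBayes, two-sided) with Benjamini-Hochberg adjustment over 75212 clusters and a threshold of 0.09, the rate given in the methods, which name siggenes. Python 3.11.15 with pandas 2.3.3, numpy 2.4.6, scipy 1.17.1 and matplotlib 3.10.9 did the rest. The procedure was tested on simulated data. Of 50 clusters given a ratio of 1.5 there, limma recovered 9, and of 50 given a ratio of 2 it recovered 30. It recovered 47 of 50 at a ratio of 5 and 48 of 50 at a ratio of 10. Of its 149 calls 15 were false. Most simulated clusters at a ratio of 1.5 were thus not called. In the data limma called many more clusters, 2228 higher and 1384 lower. The adjustment therefore set a stricter cut on the unadjusted p in the simulation. Its recovery at small ratios cannot be carried over to the data as it stands. Members, roles, lists and tests were chosen with earlier results of these data known, and 3 role patterns were adjusted once symbols were seen. Every array is given for the MCM helicase, D, E, A and B cyclins, inhibitors and *gmnn*, for the member of highest mean and of largest difference in each role, and for members past the threshold. Others, such as *cdk1*, *cdk2*, *ccng2*, *e2f8*, *cdc34a*, *cdc34b*, *tfdp2* and *mycn*, were named after their values were seen.

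The 3 collections were separate. The methods describe sorting both fractions from the cell suspension, so each collection would have given a sample of each fraction. No label ties a number to a collection, and deviations of same-numbered arrays correlated at -0.05, 0.05 and 0.17. Replicates were therefore taken as unpaired, and the intervals from limma do not use any pairing by collection. Alternatives were the replicate number as a block, a threshold of 0.05, an intensity trend, a SAM statistic, quantile normalization again, median centring, a filter on low values, identical clusters counted once, averaging a gene's clusters, and leaving out each array.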

Additional observations from a re-analysis of the deposited data

How the results depend on the processing

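Over 15 alternatives, *plk3*, *ccni2*, *cdkn1ba*, *ccnd2a*, *e2f5* and the partner gene *tfdp2* kept their call and direction. The log2 difference ran from 1.21 to 1.37 for *plk3*, from 0.46 to 0.58 for *ccni2*, from 0.62 to 0.80 for *cdkn1ba*, from -1.84 to -1.44 for *ccnd2a* and from -0.96 to -0.79 for *e2f5*. The highest adjusted p or false discovery rate among them was 0.0896, for *cdkn1ba*. No member with separate fractions changed sign. Leaving out an array cannot change the sign of separate fractions, and most other alternatives leave the difference itself unchanged. Only quantile normalization, median centring and averaging a gene's clusters could have changed it. None of the 65 members with overlapping fractions and no call was called under any alternative.

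Members called higher numbered 3 to 6 and members called lower 2 to 4. The G2 and M genes called higher numbered 1 with an intensity trend and with median centring (*cdc14b*) and 2 with the filter on low values and with identical clusters counted once (*cdc14b* and *ccnb3*, where fewer clusters were tested). After quantile normalization again the medians were 0.02 for G2 and M and 0.04 for the inhibitors. The number of inhibitors called lower was 0 with the replicate block and by the SAM statistic, and 0 to 1 without single arrays, since *cdkn1c* lost its call, and the cause was not tested. With the replicate block 3 members were higher and 3 lower, *cdk5rap3* also lost its call and *cdc34a* gained one (adjusted p = 0.160 and 0.081 from limma), and the block changed no other member's call. Over all genes with a symbol 1071 were higher and 905 lower, against 930 and 1054 after quantile normalization again, 873 and 710 with the replicate block, 531 and 438 by the SAM statistic, and 670 to 1002 and 581 to 698 without single arrays.

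Signals near the array medians limit *ccnd2a*, *e2f5*, *mcm3l*, *cdkn2c* and the 5 members whose mean lay under the median of clusters (*ccna1*, *cdc25d*, *cdk5r2a*, *cdk15* and *plk2a*), since low expression was not told apart there from background. The same limit applies to the partner genes *rad9a*, *gadd45aa*, *gadd45ab* and *birc5b*.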
